A study of Mus musculus with 16 samples.

Results

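Oligoadenylate synthetase (OAS) genes encode proteins that recognise double-stranded RNA in the cytosol. The rows of Oas1a, Oas2, Oas3, Oasl1 and Oasl2 were taken by symbol from a table of 16094 genes, which gave 5 of 5 genes, and each of them passed the filter on low values that left 14672 genes for testing. RNA had been measured in 16 mouse tumours grown from B16R2L, a mouse melanoma line, in 4 groups of 4. Control cells carried a hairpin RNA without a mouse target (shCtrl). Knockdown cells carried 1 hairpin against Mdk (shMdk), which encodes midkine, a secreted growth factor. Treatment began at a tumour volume of 100 mm3 and lasted 2 weeks, with 2 doses a week. It was either the antibody RMP1-14 (anti-PD1, at 10 mg/kg per the labels), which blocks a checkpoint receptor of T cells, or its IgG2a control. The groups were thus shCtrl with IgG2a, shCtrl with anti-PD1, shMdk with IgG2a and shMdk with anti-PD1. All 16 tumours came from hairpin-carrying cells, the knockdown rests on a single Mdk hairpin, and the age and strain of the mice are not given in the sources used here. An effect of that hairpin on other genes and the loss of midkine cannot be told apart.

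When Oas1, Oas2 and Oas3 proteins bind double-stranded RNA they join ATP into oligoadenylates with an unusual 2′-5′ linkage (2-5A), a messenger that sets off an antiviral response in the cell. Oas1a is the mouse gene closest in role to human OAS1, and Oas3, with several OAS units in a chain, binds long double-stranded RNA. Oasl1 and Oasl2 are OAS-like genes whose proteins end in ubiquitin-like domains; mouse Oasl2 has kept synthetase activity, whereas Oasl1 lacks it and is known for restraining translation of Irf7. The whole family is induced by type I interferon, and many members also respond to interferon gamma, so that their RNA is used as a read-out of interferon exposure in tumours.

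The 5 genes lie on mouse chromosome 5 (build GRCm38, GENCODE vM21), in 2 clusters. Oasl2 (plus strand, positions 114896936 to 114912234) and Oasl1 (plus strand, 114923240 to 114937915) are neighbours with a gap of 11005 bp. Oas2 (minus strand, 120730333 to 120749853) and Oas3 (minus strand, 120753098 to 120777661) are separated by 3244 bp, and Oas1a (minus strand, 120896256 to 120907521) sits at the far side of the same cluster, among a series of other Oas1 copies. That cluster spans 191.3 kb and starts 5.79 Mb from the end of Oasl1.

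The promoters are shown because genes of this family are classic targets of interferon-activated factors. The bearing of the motifs on the values in these tumours was not tested. Each line gives the 250 bases before the RefSeq start (GRCm38.p6), 5′ to 3′ on the gene's own strand. Entries were matched for 4 of the 5 genes; Oas2 had none. Capitals mark matches on either strand to the interferon-stimulated response element core (GAAA, any 2 bases, GAAA), to its shorter form AAANNGAAA, which every match to the full core also contains, or to TTCNNNGAA, the palindrome of the interferon gamma-activated site.
Oas1a, chr5:120907526-120907775, minus strand: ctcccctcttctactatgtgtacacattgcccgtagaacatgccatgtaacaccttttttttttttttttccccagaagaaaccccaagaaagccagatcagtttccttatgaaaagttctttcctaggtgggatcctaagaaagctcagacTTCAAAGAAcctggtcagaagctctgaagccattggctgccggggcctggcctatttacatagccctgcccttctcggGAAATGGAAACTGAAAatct
Oas3, chr5:120777660-120777909, minus strand: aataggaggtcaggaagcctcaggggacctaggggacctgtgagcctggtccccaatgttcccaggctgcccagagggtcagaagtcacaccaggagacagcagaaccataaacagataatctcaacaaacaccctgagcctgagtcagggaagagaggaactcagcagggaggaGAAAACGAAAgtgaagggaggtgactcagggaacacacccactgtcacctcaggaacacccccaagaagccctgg
Oasl1, chr5:114922990-114923239, plus strand: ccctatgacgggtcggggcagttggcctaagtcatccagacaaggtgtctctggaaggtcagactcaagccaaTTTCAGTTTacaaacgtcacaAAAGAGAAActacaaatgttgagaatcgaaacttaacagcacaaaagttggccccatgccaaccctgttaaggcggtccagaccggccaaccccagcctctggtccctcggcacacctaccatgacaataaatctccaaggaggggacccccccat
Oasl2, chr5:114896684-114896933, plus strand: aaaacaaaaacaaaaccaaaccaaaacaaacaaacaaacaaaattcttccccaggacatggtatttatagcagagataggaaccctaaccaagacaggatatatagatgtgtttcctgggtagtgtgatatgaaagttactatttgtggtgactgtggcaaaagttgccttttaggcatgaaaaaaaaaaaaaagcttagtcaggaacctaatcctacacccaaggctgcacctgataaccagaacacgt

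Counting positions back from the start, Oas1a had 2 overlapping matches to the full core, at -20 to -11 and at -14 to -5, and 1 such palindrome at -98 to -90. The Oas3 window held 1 full core at -75 to -66. In Oasl1 only the shorter form was found, once on each strand, at -177 to -169 and -156 to -148, and the Oasl2 window held none of the motifs searched. Among 27025 mouse promoters of the same length, 3.04% held the full core, 9.52% the shorter form and 7.18% the palindrome. A match is a string of letters and not a measured binding site.

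The libraries were made from 3′ ends of polyadenylated RNA, so a gene's value counts its 3′ ends and does not scale with gene length. Values are normalised reads, that is, reads divided by a size factor for each library, and the libraries held 5686405 to 8886334 reads. Mdk itself ran from 601 to 1161 normalised reads in the 8 shCtrl tumours and from 96.5 to 323 in the 8 shMdk tumours, with no overlap. Its log2 fold change was -2.16 ± 0.36 under IgG2a (SE; adjusted p = 0.00428) and -2.17 ± 0.36 under anti-PD1 (adjusted p = 0.00166). Summed reads of 7 melanoma markers were high in all 16 libraries, from 107394 to 187437. Gm42418, a gene model overlapping ribosomal RNA sequence, took 4.47% of the reads of shCtrl anti-PD1 tumour 2 and 3.17% of those of shMdk IgG2a tumour 1, against 0.880% to 1.56% elsewhere. In 5 libraries, genes rich in GC at their 3′ end read relatively high (a positive slope of the log2 value on 3′ GC content): shCtrl IgG2a tumours 1 and 2, shMdk IgG2a tumours 3 and 4, and shMdk anti-PD1 tumour 1. Results that depend on these libraries are given with and without them. Leaving them out keeps only shCtrl tumours 3 and 4 and shMdk tumours 1 and 2 under IgG2a. Under anti-PD1 it removes only shMdk tumour 1. For a call lost in that fit, the smaller groups and GC content cannot be told apart.

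Oas3 and Oasl2 were higher in Mdk-knockdown tumours under either antibody, and Oasl1 was higher under anti-PD1, each by limma with a Benjamini-Hochberg adjusted p under 0.05 over all genes. Oas3 showed the biggest difference of the 5 members, 5.87-fold under IgG2a and 5.92-fold under anti-PD1 (2.55 and 2.57 on the log2 scale). Oasl1 and Oasl2 differed by 1.17 to 1.55, and Oas1a and Oas2 passed in neither comparison. Anti-PD1 within a hairpin line changed none of the 5 past the threshold. Fold changes here are on the log2(value + 1) scale, with standard errors of the fit. In bulk tumours, a change in the number of expressing cells and a change in RNA per cell cannot be told apart.

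**Figure D1:**
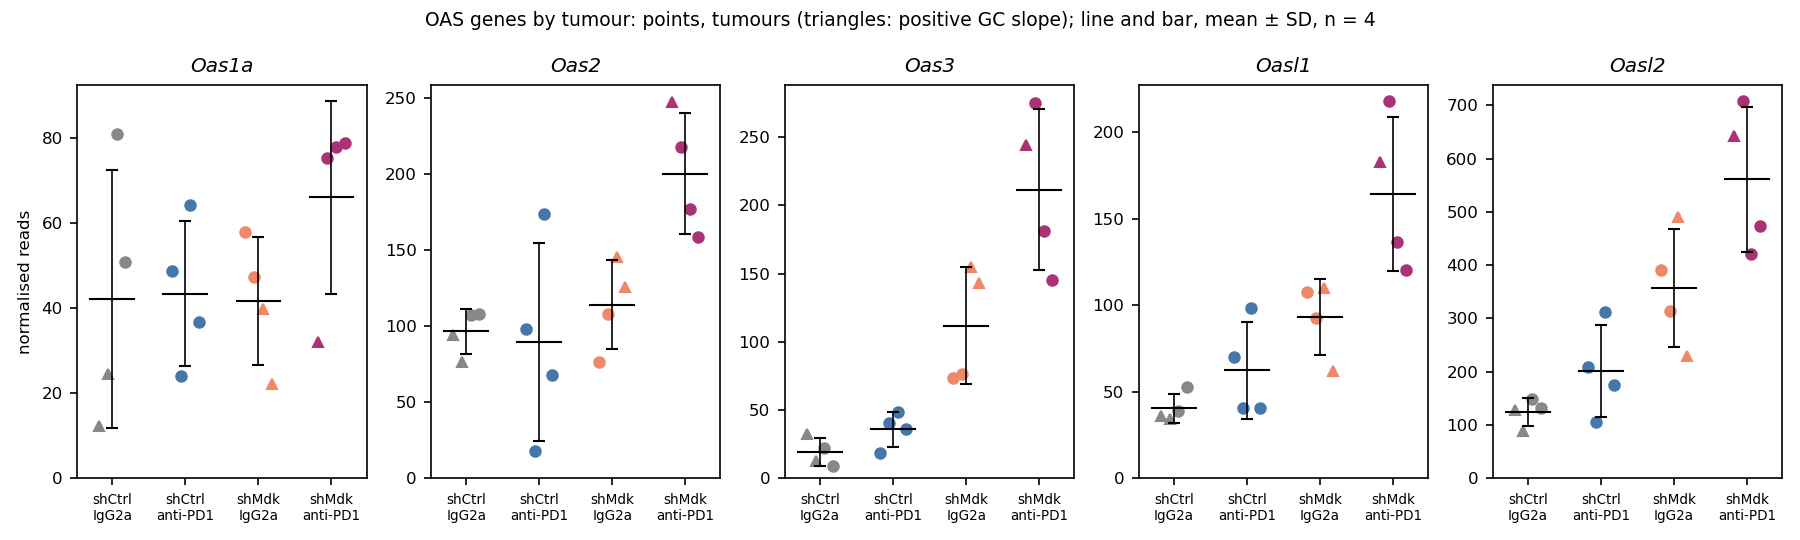
Normalised reads (linear vertical axes starting at 0) of the 5 OAS genes in each of 16 tumours by group on the horizontal axis; points are tumours, triangles the libraries with a positive GC slope, and line and bar the mean ± SD of 4 tumours. Oas3, Oasl1 and Oasl2 sit higher in the shMdk groups, while for Oas1a the 4 groups overlap.

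Oas3, the sensor of long double-stranded RNA, read 32.6, 12.8, 21.9 and 9.23 in shCtrl IgG2a tumours 1 to 4 and 18.4, 40.5, 48.3 and 35.9 in shCtrl anti-PD1 tumours. The corresponding shMdk values were 73.4, 76.4, 155 and 143 under IgG2a and 244, 275, 181 and 146 under anti-PD1. Every shMdk tumour thus lay above every shCtrl tumour, whichever antibody it had received. The group means were 19.1 ± 10.5 and 112 ± 42.9 (SD, n = 4) under IgG2a, and 35.8 ± 12.7 and 211 ± 58.7 (SD, n = 4) under anti-PD1. The log2 fold change was 2.55 ± 0.39 under IgG2a (adjusted p = 0.00264) and 2.57 ± 0.39 under anti-PD1 (adjusted p = 9.65e-04). The shCtrl values are small, with 74 reads of Oas3 over the 4 IgG2a tumours, so the pseudocount and counting error bear on the exact fold. Without the 5 libraries with a positive GC slope, the change under IgG2a kept its size but missed the threshold (2.31 ± 0.48, adjusted p = 0.0556).

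Oasl2, the OAS-like gene with synthetase activity, gave 128, 88.5, 149 and 131 normalised reads in the shCtrl group on IgG2a and 209.7, 105, 312 and 175 in the one on anti-PD1. In shMdk tumours it gave 390.5, 315, 490.1 and 230.2 under IgG2a and 642, 708, 420.3 and 474 under anti-PD1. Within each antibody the shMdk and shCtrl tumours did not overlap, whereas shCtrl anti-PD1 tumour 3 (312) reached into the range of shMdk IgG2a. The mean went from 124 ± 25.6 to 356 ± 110.6 under IgG2a (SD, n = 4; difference 1.48 ± 0.29, adjusted p = 0.0118) and from 200.6 ± 86.3 to 561 ± 136 under anti-PD1 (1.55 ± 0.29, adjusted p = 0.00402). The IgG2a difference no longer passed without the 5 libraries with a positive GC slope (1.32 ± 0.39, adjusted p = 0.149), nor without shMdk IgG2a tumour 3 (1.31 ± 0.31, adjusted p = 0.0591).

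Oasl1, the OAS-like gene without synthetase activity, read 36.0, 34.1, 39.0 and 52.6 in shCtrl tumours on IgG2a and 69.9, 40.5, 98.6 and 40.4 in shCtrl anti-PD1 tumours. Its shMdk values were 108, 92.8, 109.97 and 62.0 under IgG2a and 183, 218, 136 and 120.2 under anti-PD1. The groups were apart within each antibody, by a narrow margin under IgG2a, where the lowest shMdk tumour had 62.0 and the highest shCtrl tumour 52.6. Under anti-PD1 the mean was 164 ± 44.7 against 62.4 ± 27.8 (SD, n = 4), a log2 fold change of 1.45 ± 0.30 (adjusted p = 0.00641). Under IgG2a the means were 93.2 ± 22.1 and 40.4 ± 8.37, and the difference of 1.17 ± 0.30 missed the threshold in limma (adjusted p = 0.0537). It passed in 2 alternatives, without shMdk IgG2a tumour 4 (1.35, adjusted p = 0.0366) and in DESeq2 on the recovered reads (1.20, adjusted p = 0.00778). In the other 15, edgeR included, it did not pass (adjusted p 0.0539 to 0.264). The highest of these was without the 5 libraries with a positive GC slope (1.13 ± 0.42).

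Oas2, a synthetase with paired OAS units, stood at 94.6, 76.7, 107 and 108 in shCtrl tumours on IgG2a and at 98.4, 18.0, 174 and 68.3 in shCtrl anti-PD1 tumours. In shMdk tumours it read 76.8, 108, 146 and 126 under IgG2a and 248, 218, 177 and 159 under anti-PD1. The spread of the shCtrl anti-PD1 group stands out, with a coefficient of variation of 72.7% against 15.2% to 25.7% in the other groups. The lowest tumour of that group (18.0) is the library with the most Gm42418 and also the one with the fewest reads (5686405). The group's highest tumour (174) exceeded the lowest shMdk anti-PD1 tumour. Under IgG2a Oas2 differed by 0.21 ± 0.45 (adjusted p = 0.959), and under anti-PD1 by 1.52 ± 0.45, which missed the threshold (adjusted p = 0.0569). Without the 2 libraries high in Gm42418 that second value was 0.90 ± 0.27 (adjusted p = 0.0586), and it did not pass without shCtrl anti-PD1 tumour 2 alone (0.90 ± 0.29). It passed without shCtrl anti-PD1 tumour 3 (1.97, adjusted p = 0.00854) and in DESeq2 (1.15, adjusted p = 0.0493), and in edgeR it did not (1.13, adjusted p = 0.113).

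Oas1a had the values 12.4, 24.5, 80.8 and 50.8 in shCtrl tumours on IgG2a and 48.7, 24.0, 64.2 and 36.8 in shCtrl anti-PD1 tumours. In shMdk tumours it had 57.9, 47.3, 39.8 and 22.1 under IgG2a and 32.1, 75.4, 78.0 and 78.7 under anti-PD1. The groups overlapped in both knockdown comparisons, and the highest tumour of all was a shCtrl IgG2a tumour. The log2 fold change was 0.22 ± 0.49 under IgG2a (adjusted p = 0.962) and 0.59 ± 0.49 under anti-PD1 (adjusted p = 0.599). An interval of 2 SE ran from -0.76 to 1.20 and from -0.39 to 1.57, so a rise as large as that of Oasl1 was not excluded by the spread of Oas1a. In each of the 3 groups that hold a library with a positive GC slope, the lowest Oas1a value was in such a library (12.4, 22.1 and 32.1); without those 5 libraries the differences were -0.29 ± 0.40 under IgG2a and 0.90 ± 0.31 under anti-PD1 (adjusted p = 0.134). The part of GC content in these values was not tested. In the last 300 bases of its annotated transcripts, Oas1a shared 7 of 226 stretches of 75 bases with Oas1g, whereas Oas2, Oas3, Oasl1 and Oasl2 shared none with another Oas gene.

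**Figure D2:**
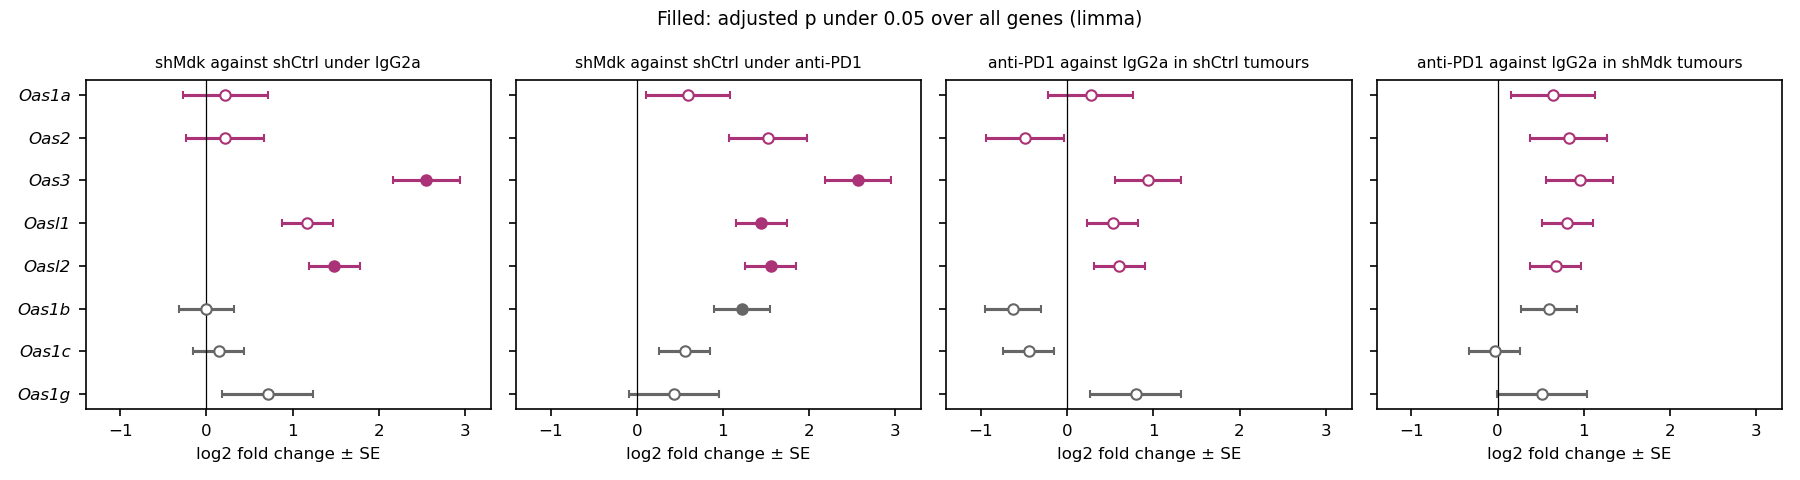
Log2 fold changes ± SE (horizontal axes) of the 5 OAS genes and of Oas1b, Oas1c and Oas1g (grey) in 4 comparisons; filled points have an adjusted p under 0.05 over all genes by limma. Filled points occur in the knockdown comparisons, for Oas3 and Oasl2 under IgG2a and for Oas3, Oasl1, Oasl2 and Oas1b under anti-PD1.

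Counted together, 2 of 5 members passed under IgG2a and 3 of 5 under anti-PD1, all of them higher in shMdk tumours. The background was 1.74% of all tested genes under IgG2a (1.63% higher) and 5.93% under anti-PD1 (4.93% higher). Under either antibody the shMdk and shCtrl groups were apart for 3 members, against 4.16% of all genes apart in that direction under IgG2a and 8.23% under anti-PD1. For groups that are apart, a two-sided exact permutation p of the single gene is always 0.0286, the smallest that 4 against 4 tumours allow. It therefore adds nothing to the count of members apart. The median log2 fold change of the members was 1.17 under IgG2a and 1.52 under anti-PD1, with -0.01 and -0.02 over all tested genes. Without the 2 libraries high in Gm42418 the counts were again 2 and 3. Without the 5 libraries with a positive GC slope they were 0 and 3, where the IgG2a groups lost more tumours than the anti-PD1 groups. Without shMdk IgG2a tumour 3 the count under IgG2a was 1. The 2 comparisons use different tumours.

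Anti-PD1 was then compared with IgG2a within each line. In shCtrl tumours 0 of 5 passed (0% of all genes did), 1 had an unadjusted p under 0.05 against 3.79% of all genes, and no member's groups were apart (0.981% of all genes in the upward direction). Oas3 differed by 0.94 ± 0.39 (unadjusted p = 0.0261), Oasl2 by 0.61 ± 0.29, Oasl1 by 0.53 ± 0.30, Oas1a by 0.27 ± 0.49 and Oas2 by -0.48 ± 0.45, with adjusted p from 0.798 to 0.893. The negative sign of Oas2 rests on shCtrl anti-PD1 tumour 2, without which the difference was 0.14. The edgeR and DESeq2 fits also called 0 of the 5 members here.

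In shMdk tumours all 5 estimates for anti-PD1 were above 0, from 0.64 ± 0.49 for Oas1a to 0.95 ± 0.39 for Oas3, and 0 of 5 passed against a background of 0.0341% (adjusted p 0.302 to 0.574). The unadjusted p was 0.0139 for Oasl1 (0.81 ± 0.30), 0.0244 for Oas3 and 0.0347 for Oasl2 (0.68 ± 0.29). Such values under 0.05 were found for 3 of 5 members and for 12.4% of all genes. For Oasl1 and Oas2 (0.82 ± 0.45) every anti-PD1 tumour lay above every IgG2a tumour (at the closest, 120.2 against 109.97 normalised reads for Oasl1), and 4.42% of all genes were apart in that direction. The anti-PD1 effect in shMdk minus that in shCtrl tumours was small next to its error for Oas3 (0.01 ± 0.55), Oasl2 (0.07 ± 0.42), Oasl1 (0.28 ± 0.42) and Oas1a (0.37 ± 0.69). It was 1.31 ± 0.64 for Oas2 (unadjusted p = 0.0560), but 0.51 ± 0.38 without the 2 libraries high in Gm42418 and 0.69 ± 0.39 without shCtrl anti-PD1 tumour 2 alone. Of the 5 members 0 passed for that difference in limma, edgeR or DESeq2, 0 had an unadjusted limma p under 0.05, and 0% of all genes passed, so no member was shown to respond differently to anti-PD1 in the 2 lines.

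Ordered by group mean, Oas3, Oasl1 and Oasl2 each went from shCtrl IgG2a through shCtrl anti-PD1 and shMdk IgG2a to shMdk anti-PD1. No neighbouring step in that order passed in limma for these genes. The middle step, shMdk IgG2a against shCtrl anti-PD1, was 1.61 ± 0.39 for Oas3 (adjusted p = 0.0833; DESeq2 1.65, adjusted p = 0.00329), 0.88 ± 0.29 for Oasl2 (adjusted p = 0.246) and 0.64 ± 0.30 for Oasl1 (adjusted p = 0.376). There 0 of 5 members passed with a background of 0.15%, and 1 of 5 (Oas3) was apart with a background of 4.59%. The ends of the order, shMdk anti-PD1 against shCtrl IgG2a, differed by 3.51 ± 0.39 for Oas3 (adjusted p = 3.26e-05), 2.16 ± 0.29 for Oasl2 (adjusted p = 1.88e-04) and 1.98 ± 0.30 for Oasl1 (adjusted p = 3.54e-04). Oas2 (1.04 ± 0.45, adjusted p = 0.169) and Oas1a (0.86 ± 0.49, adjusted p = 0.306) did not pass, which left 3 of 5 members called with 9.86% of all genes (6.39% higher), and 4 of 5 apart with 9.39%. For Oas2, whose groups were apart here, the difference passed when the fit held the 2 groups alone (adjusted p = 0.00949) or left out the 2 libraries high in Gm42418 (adjusted p = 0.0122). Those libraries lie outside the 2 groups, so both fits kept the difference of 1.04 and changed only its error. In the other 15 alternatives it did not pass, among them the fit without the 5 libraries with a positive GC slope (0.76 ± 0.64, adjusted p = 0.647).

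The make-up of the family's reads is described here by shares, which were not tested. The 5 genes together gave 323 ± 69.2 normalised reads in shCtrl IgG2a tumours, 432 ± 198 in shCtrl anti-PD1, 717 ± 157 in shMdk IgG2a and 1204 ± 259 in shMdk anti-PD1 (SD, n = 4). The mean share of Oas3 in that sum was 6.07%, 9.73%, 15.8% and 17.4% in the same order, and that of Oas1a 12.3%, 10.3%, 5.90% and 5.83%. The share of Oas2 was 30.3% in shCtrl IgG2a tumours and 16.2% to 18.5% in the other groups, whereas that of Oasl1 stayed between 12.8% and 14.7%. These shares are of 3′-end reads and describe each gene against its own share elsewhere. Relative to Oas1a in the same tumour, the log2 ratio of Oas3 was 1.97 higher in shMdk than in shCtrl tumours under anti-PD1, with the groups apart (exact permutation p = 0.0286). For Oasl2 it was 0.96 higher (exact permutation p = 0.0286), for Oasl1 0.85 (exact permutation p = 0.0857) and for Oas2 0.93 (exact permutation p = 0.143). Under IgG2a the groups overlapped for all 4 ratios, with differences of 2.33 for Oas3 and 1.26 for Oasl2 (exact permutation p = 0.0857 each), 0.95 for Oasl1 (exact permutation p = 0.171) and -0.01 for Oas2 (exact permutation p = 0.971). Over the 24 ratio comparisons made, the smallest Benjamini-Hochberg adjusted p was 0.171, so none passed.

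**Figure D3:**
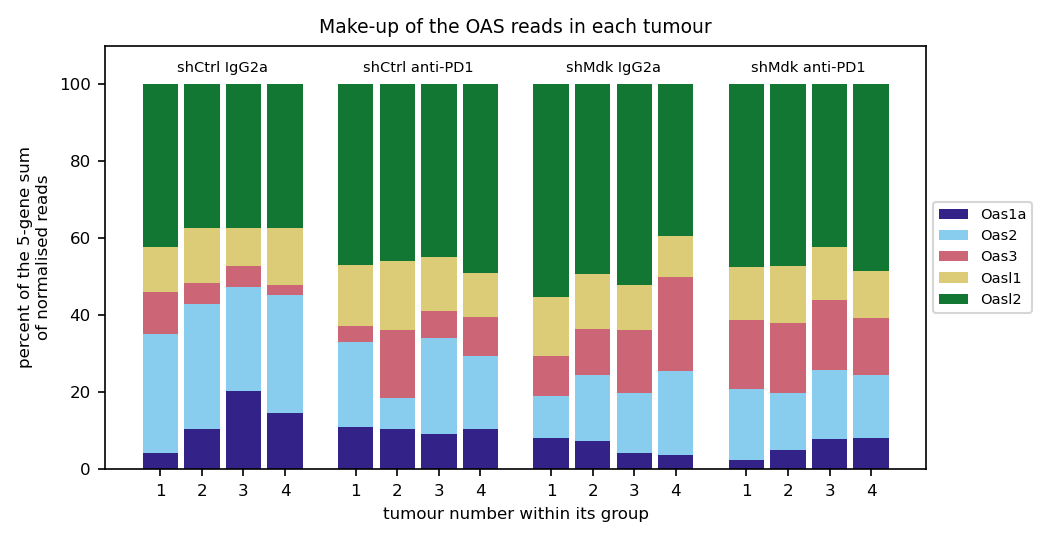
Percent of the summed normalised reads of the 5 OAS genes (vertical axis from 0 to 100) contributed by each gene in each tumour (horizontal axis, tumour number within its group). The Oas3 segment averages 6.07% in shCtrl IgG2a tumours and 17.4% in shMdk anti-PD1 tumours, and the Oas1a segment 12.3% and 5.83%.

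Across the 16 tumours the members did not vary as a block. Oasl1 and Oasl2, the chromosomal neighbours, followed each other with Pearson r = 0.97 on the log2 scale, and with r = 0.85 for deviations from the group means. Oas3 and Oasl2 had r = 0.87 over the tumours and 0.19 for the deviations, so most of their likeness lay between groups. Oas2 kept its likeness to Oasl2 within groups (0.72 and 0.75). Oas1a and Oas3 had 0.21 and -0.41. These coefficients describe 16 tumours that share their groups, libraries and depth, and no p is attached to them.

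**Figure D4:**
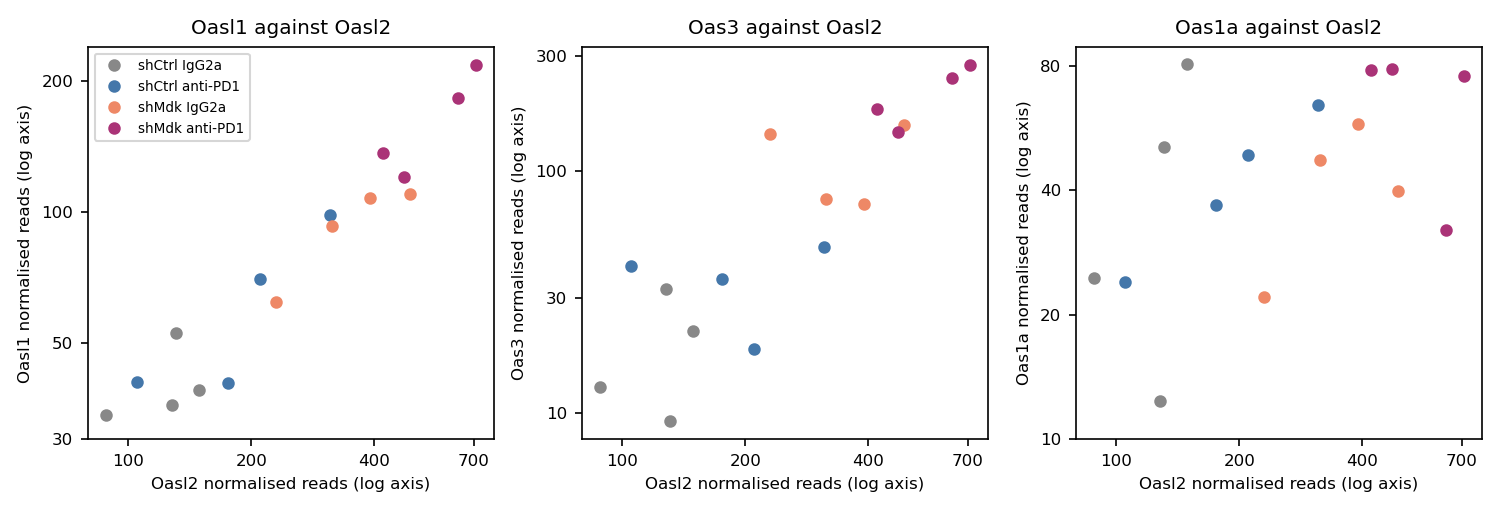
Oasl1, Oas3 and Oas1a (vertical axes) against Oasl2 (horizontal axes), normalised reads on log axes, 1 point per tumour, coloured by group. Oasl1 follows Oasl2 closely (r = 0.97), Oas3 does so mainly between groups (r = 0.87), and Oas1a does less (r = 0.51).

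The genes whose log2 levels were most like each member over the 16 tumours differed too. For Oas2 they were led by Mx1 (r = 0.95) and Mx2 (r = 0.93), interferon-induced GTPases that block viruses, and included Oas1b (r = 0.92). For Oas3 they were Slamf8 (r = 0.96), a receptor of myeloid cells, Cmpk2 and Irf8 (r = 0.95 each), Rasgef1b and H2-DMb1. Oasl2 was closest to Ifit3 (r = 0.97) and Oasl1 (r = 0.97), and Oasl1 to Oasl2, Casp1, Ifit3, Trim30a and Samd9l. For Oas1a the list was headed by Naif1 (r = 0.95), with Fam53a, Snx25, Commd7 and Sh3tc2. Among 14672 genes such top values arise in part from the search itself. For deviations from group means, Mx1 and Mx2 (r = 0.92 each) were again among the top 5 for Oas2, and Ifit3 (r = 0.87) for Oasl2. For Oas3 that top 5 was Stx17 and Parp8 (r = 0.85 each), Slc12a1, Parp10 and Arhgap22, with none of the genes named above for Oas3. For Oas1a it was Dnaja1, Slbp, Ampd2, Arsb and Tbccd1 (r = 0.96 each), again with none of those named above for Oas1a.

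Of the other OAS genes, 3 of 7 were in the table: Oas1b, Oas1c and Oas1g. Oas1b, annotated as a polymorphic pseudogene because inbred strains carry an allele with a truncated protein, is known as the flavivirus resistance gene of mice. It read 79.9, 62.9, 64.7 and 49.8 in shCtrl IgG2a tumours, 55.2, 19.5, 66.9 and 37.7 in shCtrl anti-PD1, 44.5, 56.4, 80.6 and 79.9 in shMdk IgG2a, and 97.1, 129, 81.4 and 84.6 in shMdk anti-PD1. Under anti-PD1 the groups were apart and the difference was 1.22 ± 0.32 (adjusted p = 0.0307), while under IgG2a it was -0.00 ± 0.32. This call held in 10 of the alternatives and ended in 7 (adjusted p 0.0508 to 0.106): in the fit of only the groups compared, without the libraries with a positive GC slope (adjusted p = 0.0836), and when shCtrl anti-PD1 tumour 2 or 4, or shMdk anti-PD1 tumour 1, 2 or 4, was left out. The anti-PD1 effect in shMdk minus that in shCtrl tumours was 1.22 ± 0.45 for Oas1b (unadjusted p = 0.0154) and did not pass over all genes. Oas1c differed by 0.14 ± 0.30 under IgG2a and 0.56 ± 0.30 under anti-PD1 (adjusted p = 0.351). Oas1g, with group means of 10.2 to 22.2 reads, differed by 0.71 ± 0.52 and 0.43 ± 0.52, and its value is uncertain at so few reads. Of its 3′ stretches, 33.5% occurred at any position of Oas1a, whereas 7 of the 226 3′ stretches of Oas1a occurred in Oas1g. The bearing of this sharing on the values was not tested.

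Pde12, a phosphodiesterase that degrades 2-5A, passed in neither knockdown comparison. It differed by 0.07 ± 0.15 under IgG2a and -0.17 ± 0.15 under anti-PD1 (adjusted p = 0.633), where Oas3, Oasl1 and Oasl2 had log2 fold changes of 1.45 to 2.57. Abce1, an ATPase that recycles ribosomes, differed by -0.06 ± 0.25 and -0.34 ± 0.25 (adjusted p = 0.534) and did not pass either.

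Among 14 other sensors of double-stranded RNA or of its Z-form, 1 rose in each knockdown comparison and 0 fell. With 1.63% (IgG2a) and 4.93% (anti-PD1) of all genes called higher, nothing is read about the list from a count of 1 in 14. Under IgG2a the count was 0 without the libraries with a positive GC slope, and without shCtrl IgG2a tumour 3 or 4 or shMdk IgG2a tumour 3. The gene was Zbp1, a sensor of Z-form nucleic acid that can trigger cell death, with 238 ± 53.3 against 56.6 ± 46.5 normalised reads under anti-PD1 (SD, n = 4; log2 fold change 2.65 ± 0.61, adjusted p = 0.0147; without shMdk anti-PD1 tumour 2, adjusted p = 0.0506). Under anti-PD1 the RIG-I-like receptors, helicases that bind double-stranded RNA in the cytosol, had smaller differences that did not pass: Dhx58 1.0 ± 0.31 (adjusted p = 0.0704; 0.0440 in DESeq2 and 0.0405 without shCtrl anti-PD1 tumour 3, each of which raised the list's count to 2), Ifih1 0.62 ± 0.24 (adjusted p = 0.164) and Ddx58 0.29 ± 0.19 (adjusted p = 0.470). Eif2ak2, the kinase PKR that stops translation, differed by -0.07 ± 0.23, and Adar, which edits double-stranded RNA, by 0.44 ± 0.16 (adjusted p = 0.140). The median log2 fold change of the 14 was 0.15 under IgG2a and 0.38 under anti-PD1.

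**Figure D5:**
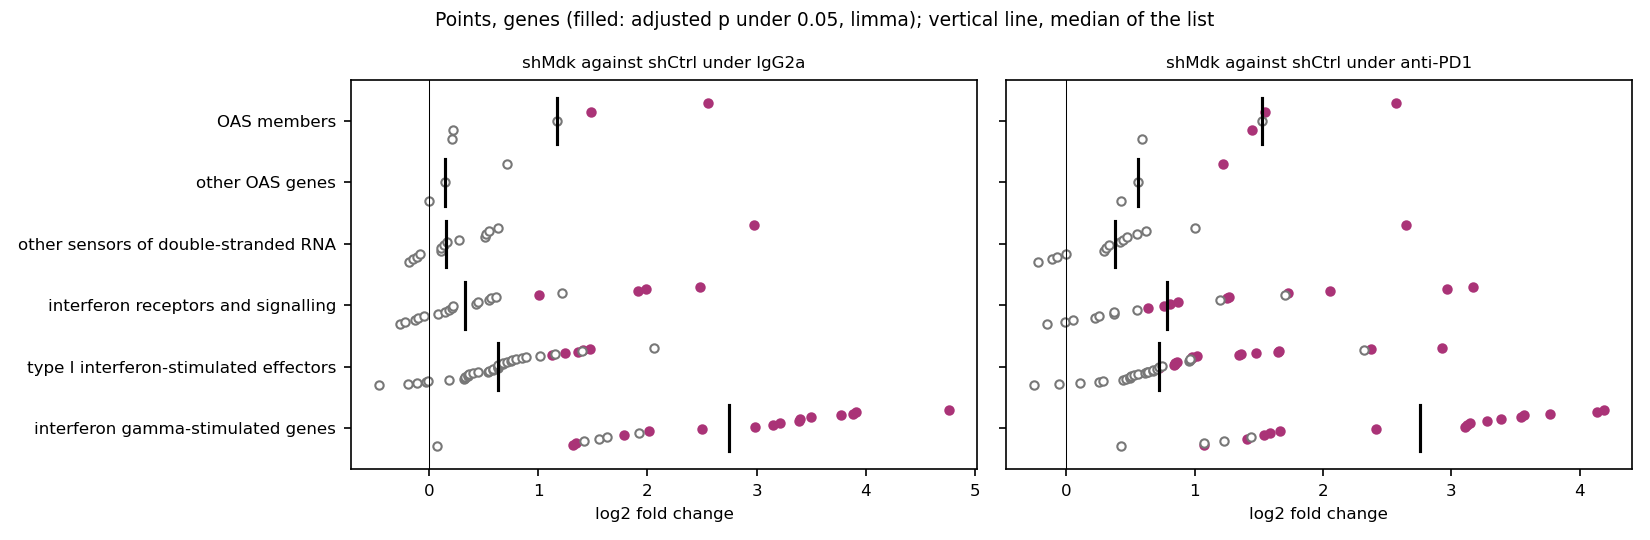
Log2 fold changes of single genes (points; filled where the adjusted p was under 0.05 by limma) in the OAS members and 5 lists of related genes, with the list's median as a vertical bar, for the 2 knockdown comparisons. The bar of the OAS members lies at 1.17 and 1.52, and that of the interferon gamma-stimulated genes at 2.74 and 2.76.

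Genes of interferon reception and signalling rose in 4 of 20 cases under IgG2a and in 10 of 20 under anti-PD1, with 0 lower and medians of 0.33 and 0.78. Over all genes 1.63% and 4.93% were called higher, which is the background for this list and the next 2. Under anti-PD1 they included Irf8, a factor of myeloid cells (421 ± 125 against 53.1 ± 16.4 normalised reads, SD, n = 4; 2.96 ± 0.32, adjusted p = 7.76e-05), Irf1 (2.05 ± 0.32) and Irf7 (1.72 ± 0.31, adjusted p = 0.00275), whose translation Oasl1 restrains. Irf9, the DNA-binding subunit of the type I interferon complex ISGF3, did not pass (0.23 ± 0.20). Of 39 type I interferon-stimulated effectors other than the OAS genes, 5 rose under IgG2a and 15 under anti-PD1, with 0 lower and medians of 0.63 and 0.72. Under anti-PD1, Ifit3 (1.48 ± 0.31, adjusted p = 0.00732) and Cmpk2 (1.35 ± 0.25, adjusted p = 0.00326) lay above that median. Isg15, the ubiquitin-like modifier, had 907 ± 329 against 789 ± 373 (0.25 ± 0.51, adjusted p = 0.874). Genes named from the lists were chosen in part for the smallest p under anti-PD1, so they do not stand for their lists.

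Of 20 interferon gamma-stimulated genes, 15 rose under IgG2a and 16 under anti-PD1, again with 0 lower. Their medians of 2.74 and 2.76 lay above those of the OAS members, with Gbp4, a GTPase that attacks intracellular pathogens, at 4.13 ± 0.70 and the MHC class II gene H2-Aa at 3.28 ± 0.48 under anti-PD1. The interferon genes themselves could not be compared, because 0 of 21 had an entry in the table used. Without the 5 libraries with a positive GC slope, the counts under IgG2a fell to 1 of 20 signalling genes, 0 of 39 type I effectors and 1 of 20 interferon gamma-stimulated genes, in a fit that called 74 genes in all. Under anti-PD1 they were then 11, 10 and 16, with 621 genes called in all. Leaving out single tumours gave 1 (without shMdk IgG2a tumour 3) to 7 type I effectors under IgG2a and 6 (without shMdk anti-PD1 tumour 1) to 17 under anti-PD1. For signalling genes the ranges were 2 (without shMdk IgG2a tumour 1 or 3) to 5 and 6 (without shMdk anti-PD1 tumour 1) to 10, and for interferon gamma-stimulated genes 10 to 15 and 12 to 16. In these lists anti-PD1 within a hairpin line called 0 genes.

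Cell type markers were counted in the same 2 knockdown comparisons. Over all genes 1.63% (IgG2a) and 4.93% (anti-PD1) were called higher, and nothing is read about a list from a count of 1 or 2. The marker counts were not repeated without the 5 libraries with a positive GC slope. Of 4 leukocyte markers 3 rose under IgG2a and 4 under anti-PD1, of 6 macrophage and monocyte markers 2 and 6, and of 5 T and NK cell markers 1 and 4. In the lists of B and plasma cells (3 genes tested) and dendritic cells (2 genes tested), 0 passed in either comparison. Neutrophil markers had a median log2 fold change of -0.73 under IgG2a (0 of 4 passed) and 2.19 under anti-PD1 (1 of 4 rose). The summed reads of 4 leukocyte markers ran from 53.3 to 212 in shCtrl IgG2a, 94.6 to 304 in shCtrl anti-PD1, 464 to 1035 in shMdk IgG2a and 717 to 1718 in shMdk anti-PD1 tumours, with all 4 genes in the table and none at 0 over a group. Those of 6 macrophage and monocyte markers ran from 399 to 1035, 317 to 1294, 1275 to 2810 and 2656 to 6492. Ptprc, the leukocyte antigen CD45, was higher in shMdk tumours by 2.88 ± 0.51 under IgG2a (127 against 19.6 normalised reads, adjusted p = 0.00614) and by 2.66 ± 0.51 under anti-PD1 (207 against 35.2, adjusted p = 0.00445). Without the 5 libraries with a positive GC slope, the Ptprc difference under IgG2a was 3.82 ± 0.64 (adjusted p = 0.0464). For T and NK cells 5 of 9 markers were in the table, and their sums were 0 to 35.0 in shCtrl tumours and 79.1 to 292 in shMdk tumours. Sums of 4 fibroblast markers ran from 1255 to 9415 in shMdk anti-PD1 tumours and from 389 to 1897 in the other 3 groups. Of these markers 0 passed under IgG2a and 2 rose under anti-PD1 (median log2 fold change 2.10). Of 4 endothelium markers 0 passed under IgG2a and 3 rose under anti-PD1 (median 1.13). Median sums of the 7 melanoma markers were 173480 and 157389 in the shCtrl groups and 135685 and 136643 in the shMdk groups. Of these 7 markers 0 passed in either knockdown comparison, with median log2 fold changes of -0.22 under IgG2a and -0.19 under anti-PD1. The part of these cells in the OAS values was not tested.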

How the data were processed

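Per the labels' protocols, 500 ng of total RNA per tumour went into a stranded 3′ mRNA kit. The submitters' processing notes name DESeq2 and HTSeq, TopHat2 2.0.10 with Bowtie 1.0.0, FastQC 0.11.0 and SAMtools 0.1.19, and the build GRCm38 (mm10). The authors deposited 1 normalised signal per gene and tumour: reads divided by size factors, judged from the values, since whole reads were recovered for 100% of them within 0.001. The table had 0 unused per-sample columns.

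limma 3.58.1 (R 4.3.3; trend, group means, 16 tumours, 12 residual degrees of freedom) was run on log2(value + 1) for the 14672 genes with a mean of at least 5, and p-values were adjusted by Benjamini-Hochberg within a comparison. Each adjusted p comes from it unless another tool is named. Single values were compared by two-sided exact permutation tests. Alternatives were pseudocounts of 0.5 and 5, no filter, TMM scaling, edgeR 4.0.16 (quasi-likelihood) and DESeq2 1.42.0 on recovered reads, a fit of only the groups compared, and leaving out each tumour. Leaving out the libraries high in Gm42418 (above 2%) or with a positive GC slope was added after seeing the data. The fitting code was tested on simulated data.

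The members and lists were chosen with earlier results of these data known. Named genes were the members, Mdk, other Oas genes, Abce1, Pde12, a fixed set, up to 4 genes per list with the smallest p for shMdk against shCtrl under anti-PD1, and the 5 most correlated genes per member; some are not reported here. Tumour numbers follow the order of deposition and pair nothing. The labels describe separate tumours, so p-values are set against the spread between tumours. Promoter sequences are from RefSeq (GRCm38.p6).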

Additional observations from a re-analysis of the deposited data

Results flagged for a closer look

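Oas1a in shMdk anti-PD1 tumour 1 was 32.1 normalised reads, far below the other tumours of its group, which had 75.4, 78.0 and 78.7, and its gap to the nearest of them exceeded Dixon's 95% limit for 4 samples. Of 20 member and group combinations scanned 1 stood out in this way, and chance gives about 1 in 20. The same library had the second-highest values of Oas3 (244), Oasl1 (183) and Oasl2 (642) and the highest of Oas2 (248) in the group, and is among those with a positive GC slope.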

How the results depend on the processing

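Of 630 alternative values for single members, 587 kept direction and side of the threshold, 7 newly passed, 3 no longer passed and 33 changed sign, the last in differences that passed nowhere. The member count under IgG2a (2) was 0 without the libraries with a positive GC slope and 1 to 3 when single tumours were left out. For shMdk IgG2a against shCtrl anti-PD1 it was 1 in place of 0 in DESeq2. Over all genes, the knockdown called 255 under IgG2a (DESeq2 449; without positive GC slopes 74; single tumours left out 136 to 271, with 136 and 167 when shMdk IgG2a tumour 3 or 1 was left out and 158 and 160 for shCtrl IgG2a tumour 4 or 3) and 870 under anti-PD1 (DESeq2 1310; single tumours left out 443 to 858, with 443 and 569 without shMdk anti-PD1 tumours 1 and 2). Anti-PD1 called 0 in shCtrl (DESeq2 7) and 5 in shMdk tumours (0 to 244 over the alternatives, with DESeq2 at 244). The shMdk IgG2a against shCtrl anti-PD1 comparison called 22 (1 to 245, with DESeq2 at 245), and shMdk anti-PD1 against shCtrl IgG2a 1447 (564 without positive GC slopes to 2034). The causes were not tested.

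The sign of Oas1a changed under IgG2a knockdown in edgeR (-0.019), DESeq2 (-0.018) and without positive GC slopes (-0.29; single tumours left out, -0.24 to 0.64). Without positive GC slopes it also changed for anti-PD1 in shCtrl (-0.64; single tumours -0.19 to 0.68) and shMdk IgG2a against shCtrl anti-PD1 (0.35; -0.30 to 0.22). For its line difference (anti-PD1 effect in shMdk minus that in shCtrl), single tumours gave -0.042 to 0.83. Oas2 turned under IgG2a knockdown without positive GC slopes (-0.24) and for anti-PD1 in shCtrl without the libraries high in Gm42418 (0.14; single tumours -0.93 to 0.14). The line difference of Oas3 was -0.00611 with a pseudocount of 0.5, -0.00685 with TMM, -0.00828 in edgeR and -0.075 without Gm42418-high libraries (single tumours -0.28 to 0.29). That of Oasl2 was -0.063 in edgeR, -0.041 in DESeq2 and -0.14 without Gm42418-high libraries (-0.21 to 0.32). Oas1b under IgG2a was 0.000919 with a pseudocount of 5, 0.00340 with TMM, 0.033 in edgeR, 0.027 in DESeq2 and 0.17 without Gm42418-high libraries (-0.11 to 0.17). Isg15 under anti-PD1 was -0.076 without Gm42418-high libraries (-0.076 to 0.53). Single tumours also turned Abce1 (-0.27 to 0.14) and Pde12 (-0.035 to 0.16) under IgG2a and Eif2ak2 under anti-PD1 (-0.20 to 0.091).

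No paired analysis was possible because the labels carry no replicate numbers. Of the OAS genes, depth limits Oas3 and Oas1g most, with 74 and 42 reads over the 4 shCtrl IgG2a tumours.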
